A study of Mus musculus with 35 samples.

Results

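The epidermal growth factor (EGF) signaling family was followed through all 35 libraries of the series in 8 genes: the ligand genes Hbegf, Ereg, Areg, Tgfa and Btc, the receptor genes Egfr and Erbb2, and the feedback inhibitor Errfi1. These are 8 of the 24421 genes listed in the count files, and all 8 had enough reads to be tested. Areg in the populations and Btc in the clones had enough only through the groups where they were higher, as given below. The set was selected on the level of Hbegf, which is higher after deletion of Nelfb in empty-vector cells, so the values of that contrast are given below as a description without a test. EGF-family ligands are made as membrane-anchored precursors and are released by cell-surface proteases. A released ligand binds a receptor tyrosine kinase of the ErbB family, the receptor pairs with itself or with ERBB2, which has no known ligand of its own, and the pair signals through the RAS-ERK and PI3K-AKT pathways. Fibroblasts are known to express EGFR and to respond to EGF, and several ligand genes and Errfi1 are themselves induced by ERK signaling, the ligands amplifying the signal and Errfi1 (also called MIG6) inhibiting the receptor kinase.

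The cells were immortalized mouse embryonic fibroblasts (iMEFs) that carry 1 floxed and 1 null allele of Nelfb, which encodes a subunit of the negative elongation factor (NELF) complex. All 20 population libraries share this genotype and growth in 10% serum. They held an empty vector (EV) or a Flag-tagged NELFB construct, namely wild type (WT), the point mutants MT194 or MT486, or both mutations together (DMT), and were taken 7 days after Ad-Cre, an adenovirus that expresses Cre and deletes the floxed allele, or after the control virus Ad-GFP, with 2 replicates in each of 10 groups. The 15 stable libraries came from single colonies isolated after Ad-Cre, 3 clones each with WT, MT194 or MT486 in a pLenti vector and with WT(N48) or the C-terminal truncation Δ-C60 in a pBabe vector, as labelled, so that construct and vector cannot be told apart across the 2 vectors. The study's methods describe a lentiviral backbone for these constructs, Δ-C60 included, and no pBabe vector, so the vectors are given here as the labels have them and the split by vector is one of labels. Between 17969149 and 29080007 reads per population and between 18413284 and 27816723 per clone were counted on genes. The lentiviral backbone of the methods carries the constitutive CMV promoter, and reads of a construct and of the endogenous gene both count as Nelfb. Levels are CPM, read counts scaled to library size after TMM normalization, computed apart for populations and clones, and levels of different genes are compared only as CPM per kb of merged exons.

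Nelfb itself was read first, as a check of the labels. EV-Cre libraries had 7.97 and 5.46 CPM against 46.1 and 39.5 in EV-GFP. Every population with a construct had at least 60.5 CPM after Ad-Cre. Among the clones, 2 of the 3 libraries labelled WT went against their label, with 10.3 CPM (200 reads) in WT clone 1 and 15.5 CPM (306 reads) in WT clone 3, compared with 109 CPM in WT clone 2 and at least 56.3 CPM in every other clone. The clones were therefore compared with WT(N48), and results with the libraries labelled WT are given beside them. Of 10 fibroblast markers, 9 had a median over 1 CPM in the populations and 8 in the clones, with summed levels of 21657 to 50250 and of 7481 to 26146 CPM and with Fn1 as the most abundant, while Thy1 was at a median of 0 in both and Lum in the clones. Summed markers of epithelial, endothelial and leukocyte cells stayed at or below 5.98 CPM in each library, and in bulk RNA a change in the number of cells cannot be told apart from a change in RNA per cell.

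Ereg, Areg and Btc lie close together on mouse chromosome 5 (GRCm38, the same assembly as mm10): Ereg spans 91074622 to 91093646 and Areg 91139599 to 91148432 on the plus strand, and Btc 91357261 to 91402994 on the minus strand. Tgfa lies on chromosome 6 from 86195223 to 86275719, Errfi1 on chromosome 4 from 150853919 to 150868892, and Egfr (16752203 to 16918158) and Erbb2 (98412470 to 98437716) on chromosome 11. RefSeq promoter windows, 250 bases before to 50 bases after a start site, were at hand for 6 of the 8 genes. There was none for Hbegf or Ereg, so nothing below covers their promoters. They were searched on both strands for 5 motifs. The first was the cyclic AMP response element (CRE), spelled TGACGTCA. An AP-1 site was spelled TGANTCA. A TEAD site was spelled GGAATG. The CCAAT box was searched by its name's letters. An E-box was spelled CACGTG. No matches overlapped. Areg and Errfi1 are shown because both had higher levels after Ad-Cre in all or nearly all pairs below and because each holds 1 CRE, which 1.79% of 32851 mouse promoter windows hold. The 120 bases that end just before the start site are given 5′ to 3′ on the plus strand of GRCm38.p6 with the CRE in capitals.
Areg, chr5:91139479-91139598: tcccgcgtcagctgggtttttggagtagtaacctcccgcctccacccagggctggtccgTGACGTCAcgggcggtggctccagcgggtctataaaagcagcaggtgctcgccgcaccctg
Errfi1, chr4:150854950-150855069: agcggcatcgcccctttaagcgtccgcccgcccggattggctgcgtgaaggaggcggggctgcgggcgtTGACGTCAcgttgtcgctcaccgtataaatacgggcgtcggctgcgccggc
The CRE starts 61 bases before the start of Areg and 51 bases before this start of Errfi1, which lies in the first intron of the longer Errfi1 transcript. The other Errfi1 window had no CRE and held a TEAD match, as did the Erbb2 window, and no window held an AP-1 or E-box match (7.81% and 7.15% of all promoters hold one). CCAAT, found in 37.4% of all promoters, was in this Errfi1 window and in that of Erbb2. TEAD letters occur in 14.7% of all windows. The Btc, Tgfa and Egfr windows held none of these motifs.

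Hbegf encodes heparin-binding EGF-like growth factor, a ligand of EGFR and ERBB4. In the empty-vector cells that chose the set, Hbegf had 158 and 236 CPM in EV-Cre against 21.2 and 26.5 in EV-GFP, a log2 fold change of 3.04. All Ad-GFP libraries of every construct lay between 14.1 and 26.5 CPM. Ereg, which encodes epiregulin, had 127 and 156 CPM in EV-Cre against 22.7 and 31.8 in EV-GFP (log2 fold change 2.38), and Errfi1 427 and 320 against 220 and 191 (0.86). For these 3 genes the EV-Cre and EV-GFP values did not overlap. With 2 libraries a group, absence of overlap is a weak description, here and below for the populations. The share of all genes without overlap was not computed there. Areg (amphiregulin) had 16 and 12 reads against 7 and 5 (log2 fold change 1.12), Btc (betacellulin) differed by 0.12, and the lower values in EV-Cre were those of Tgfa (-0.89), Egfr (-0.52) and Erbb2 (-0.34). Within the 2 experiments, the log2 ratio of EV-Cre to EV-GFP was -0.31 and -0.36 for Erbb2, and 0.58 and -0.31 for Btc, which thus had no common direction. Of all 13805 genes tested in this contrast, 11.8% passed an adjusted p of 0.05 and an absolute log2 fold change of 0.5, the rule for a call used here except in interactions, and nothing is read from that share for the 8 genes.

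**Figure D1:**
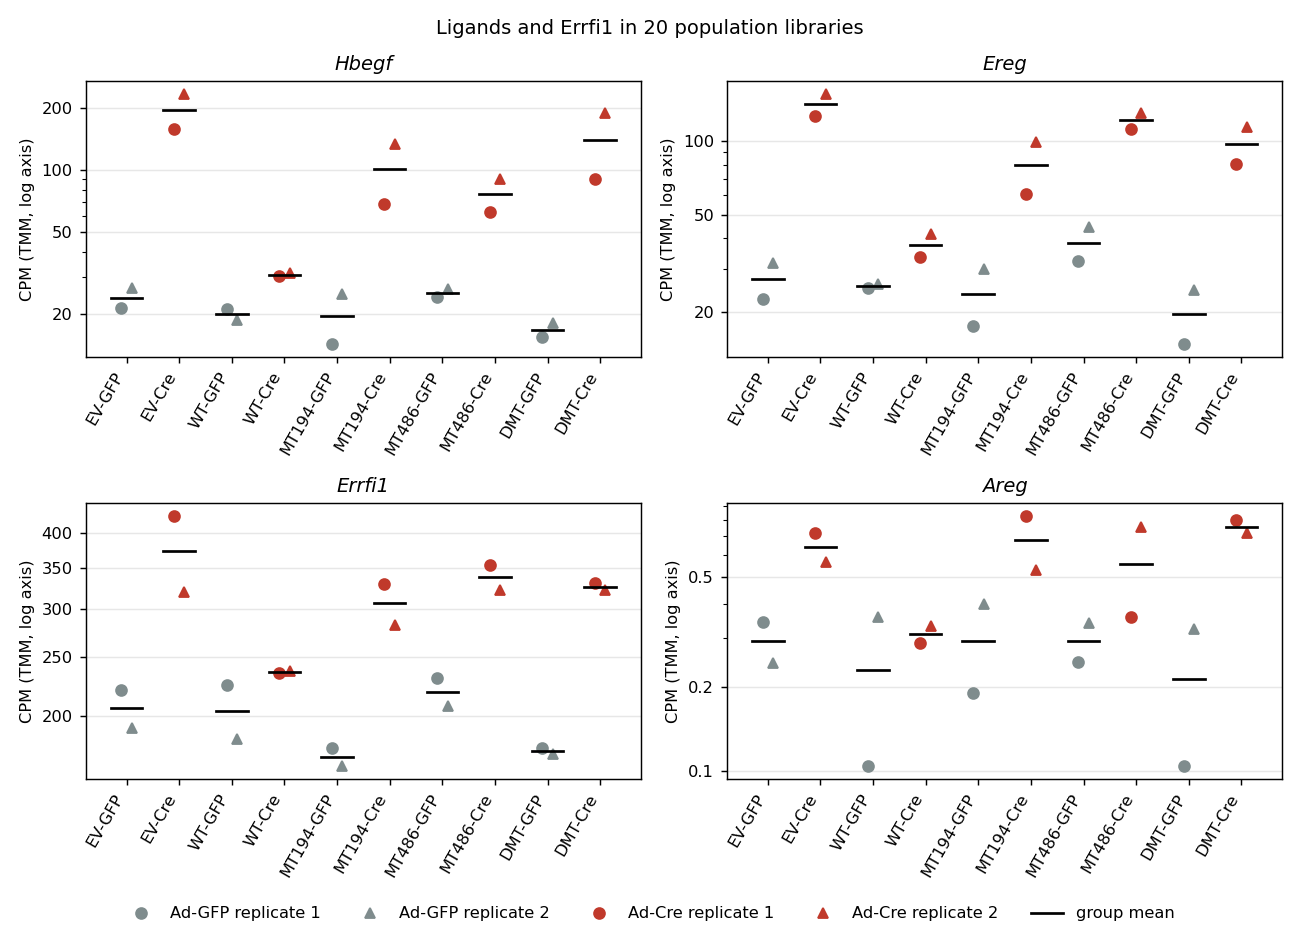
CPM on a log axis of Hbegf, Ereg, Errfi1 and Areg in each of the 20 population libraries, with circles for replicate 1, triangles for replicate 2, gray for Ad-GFP, red for Ad-Cre and a line at each group mean. WT-Cre stays at 30.4 and 31.4 CPM of Hbegf, while MT194-Cre, MT486-Cre and DMT-Cre reach 62.2 to 190 CPM.

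With wild-type NELFB, none of the 8 genes was called after Ad-Cre. Hbegf had 30.4 and 31.4 CPM in WT-Cre against 21.0 and 18.6 in WT-GFP, and Ereg had 33.4 and 41.6 against 25.1 and 25.9. Levels of both genes in WT-Cre were above those in WT-GFP without overlap, and the log2 fold changes were 0.64 (standard error 0.39) for Hbegf and 0.56 (0.33) for Ereg, with adjusted p-values of 0.9 and 0.895 (edgeR quasi-likelihood F test, Benjamini-Hochberg over all genes, as for every adjusted p here unless DESeq2 is named). Errfi1, at 235 and 237 CPM against 225 and 183, gave 0.21 (0.17) with an adjusted p of 1. The 0 calls stand beside 0.0217% of all genes. With the replicate number, which marks the independent experiment, as a block, Ereg was called (0.55, adjusted p = 0.0366) and the other 7 were not, beside 3.09% of all genes.

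The question that the mutant populations address is which part of the response to Nelfb loss returns when NELFB carries mutations that disrupt its contacts with other NELF subunits. In MT194, Hbegf had 68.6 and 134 CPM after Ad-Cre against 14.1 and 24.9 after Ad-GFP, and Ereg 60.6 and 99.5 against 17.5 and 29.8. Errfi1 had 330 and 283 CPM against 177 and 165. The lowest Ad-Cre value of each gene was above the highest Ad-GFP value. Hbegf rose by 2.37 in log2 units (standard error 0.40, adjusted p = 0.00483), Ereg by 1.76 (0.33, adjusted p = 0.00976) and Errfi1 by 0.84 (0.17, adjusted p = 0.0149). These 3 of 8 genes were called beside 4.22% of all genes. Fits with 1 population library left out, here and below, were made without the block. They therefore mix in the difference between experiments and have 1 library in a group. The Hbegf call was lost without MT194-GFP replicate 1 (adjusted p = 0.071), that of Ereg without the same library (0.113) or MT194-Cre replicate 2 (0.0756), and that of Errfi1 without MT194-Cre replicate 1 (0.105), MT194-GFP replicate 1 (0.0908) or MT194-GFP replicate 2 (0.117). With the 2 groups fitted alone, none of the 3 was called (0.141, 0.181 and 0.47 in the same order). Tgfa, the gene of transforming growth factor alpha, had 2.46 and 5.63 CPM against 5.97 and 7.95 (-0.80, adjusted p = 0.28), and with the replicate block it was called lower (-0.83, adjusted p = 0.00923), which made 4 of 8 genes beside 14.5% of all genes.

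In MT486, Hbegf had 62.2 and 90.6 CPM after Ad-Cre against 24.0 and 26.4, and Ereg had 112 and 130 against 32.2 and 44.4. For both genes the groups did not overlap, and the Ereg values in MT486-Cre overlapped with those in EV-Cre. Hbegf rose by 1.60 (standard error 0.39, adjusted p = 0.0496) and Ereg by 1.67 (0.33, adjusted p = 0.0196), 2 of the 8 genes beside 2.42% of all genes. Neither call remained when any of the 4 MT486 libraries was left out, where the adjusted p ranged from 0.102 to 0.245 for Hbegf and from 0.0695 to 0.164 for Ereg, or when the 2 groups were fitted alone (0.115 and 0.0937). With size factors of DESeq2 in place of TMM, edgeR did not call Hbegf (1.60, adjusted p = 0.0515) and still called Ereg. Errfi1 had 354 and 322 CPM against 231 and 207, a difference of 0.63 (0.17) with an adjusted p of 0.0797. DESeq2 called Errfi1 higher (0.63, adjusted p = 0.00359), the third of the 8 genes, beside 5.08% of all genes. With the replicate block and all libraries, Hbegf and Ereg were both called. In all, 4 of the 8 genes were called with it beside 12.1% of all genes, as Errfi1 was higher (0.63, adjusted p = 0.000204) and Tgfa lower (-0.61, adjusted p = 0.0379).

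DMT gave the largest fitted Hbegf difference of the 4 NELFB constructs. Hbegf had 90.7 and 190 CPM in DMT-Cre against 15.4 and 17.9 in DMT-GFP, Ereg had 80.9 and 114 against 14.7 and 24.5, and Errfi1 had 331 and 322 against 177 and 173. No values overlapped between the groups for these genes, which with 2 libraries each is again only a description. Hbegf rose by 3.07 (standard error 0.41, adjusted p = 0.000517), Ereg by 2.31 (0.34, adjusted p = 0.000979) and Errfi1 by 0.90 (0.17, adjusted p = 0.00534). These 3 of 8 genes were called beside 9.92% of all genes. The Hbegf and Ereg calls remained with each of the 4 DMT libraries left out, and that of Errfi1 was lost without DMT-GFP replicate 2 (adjusted p = 0.0607) and with the 2 groups fitted alone (0.108). Areg, a ligand of EGFR with only 2 to 22 reads in each population, had 21 and 18 reads in DMT-Cre against 2 and 9 in DMT-GFP, a difference of 1.71 (0.56) with an adjusted p of 0.0686, and it was called with the replicate block (1.72, adjusted p = 0.0157), which made 4 of 8 genes beside 23.1% of all genes. Areg passed the filter for low counts only through Ad-Cre libraries, EV-Cre included, where it was higher, so this call is not support.

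**Figure D2:**
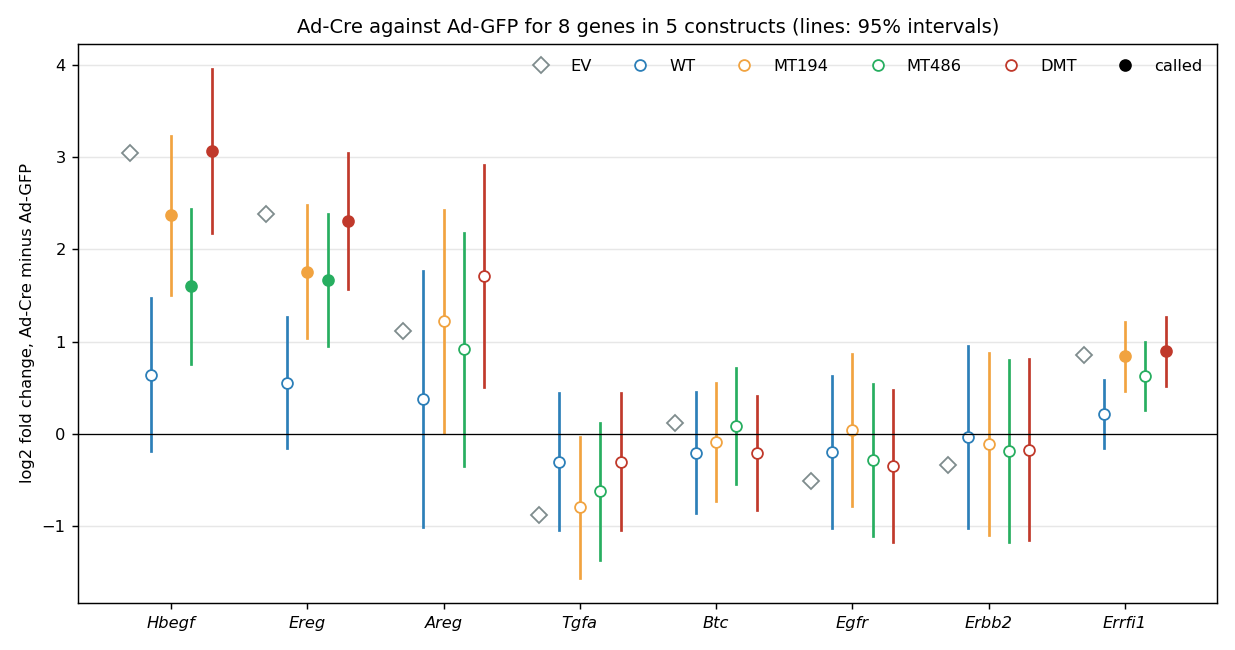
Log2 fold change of Ad-Cre over Ad-GFP for each of the 8 genes in the 5 constructs, with 95% intervals and filled symbols for calls in the 4 NELFB constructs and open diamonds without interval for EV, which chose the set. Hbegf, Ereg and Errfi1 are filled in MT194 and DMT, Hbegf and Ereg in MT486, and no gene is filled in WT.

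The difference of each mutant from wild-type rescue was tested in 2 ways, which share the WT libraries and so are not independent. Directly against WT-Cre, Hbegf was higher by 2.18 in DMT-Cre (standard error 0.39, adjusted p = 0.0111) and Ereg by 1.38 (0.33, adjusted p = 0.0418), 2 of the 8 genes beside 2.94% of all genes. Both DMT-Cre values of each gene lay above both WT-Cre values. Leaving out DMT-Cre replicate 2, WT-Cre replicate 1 or WT-Cre replicate 2 ended the Hbegf call (adjusted p of 0.117, 0.122 and 0.113), and the Ereg call ended without any of the 4 libraries (0.077 to 0.312). For MT194-Cre, Hbegf differed from WT-Cre by 1.71 (0.39, adjusted p = 0.051) and Ereg by 1.09 (0.33, adjusted p = 0.145), with 1.38% of all genes called. Hbegf was called without MT194-Cre replicate 1 (2.11, adjusted p = 0.0385). For MT486-Cre, Hbegf differed by 1.31 (0.38, adjusted p = 0.31) and Ereg by 1.69 (0.33, adjusted p = 0.0762), with 0.109% of all genes called. None of the 8 genes was called in MT194-Cre or MT486-Cre. With the replicate block, Hbegf was called in MT194-Cre (1.64, adjusted p = 0.0017) and MT486-Cre (1.27, adjusted p = 0.0157), and so was Ereg (1.06, adjusted p = 7.97e-05, and 1.70, adjusted p = 2.95e-06). DESeq2 also called Hbegf (1.73, adjusted p = 0.000947) and Ereg (1.11, adjusted p = 0.0309) in MT194-Cre and Ereg (1.70, adjusted p = 0.000254) in MT486-Cre. Fitted on the compared groups alone, the Ereg call in DMT-Cre was lost (adjusted p = 0.0538). With the block, 10.9%, 5.24% and 14.2% of all genes were called in MT194-Cre, MT486-Cre and DMT-Cre, and by DESeq2 3.32% in MT194-Cre and 1.12% in MT486-Cre. Errfi1 differed from WT-Cre by 0.37, 0.52 and 0.47 in MT194-Cre, MT486-Cre and DMT-Cre (adjusted p of 0.406, 0.44 and 0.185) and was called with the block in MT486-Cre (0.51, adjusted p = 0.00328).

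The same question was asked of the Ad-Cre effects themselves, as an interaction. The Hbegf effect exceeded that in WT by 1.73 in MT194 (standard error 0.54, adjusted p = 0.661), 0.96 in MT486 (0.54, adjusted p = 1) and 2.43 in DMT (0.55, adjusted p = 0.124). For Ereg the differences were 1.20, 1.11 and 1.75, and for Errfi1 0.63, 0.41 and 0.68, in the same order. None of the 8 genes passed an adjusted p of 0.05 in any of the 3 tests, beside 0% of all genes in MT194 and MT486 and 0.138% in DMT. An unadjusted p under 0.05 was reached by 615 genes in MT194 and 260 in MT486, and DESeq2 called 68 and 4 genes there, none of the 8 among them. With the replicate block, Hbegf, Ereg and Errfi1 passed in MT194 (adjusted p of 0.0471, 0.00545 and 0.0205) and in DMT (0.00477, 0.000116 and 0.00517), and Ereg alone in MT486 (0.0311), where the block passed 2.74%, 8.84% and 0.232% of all genes in the same order of constructs. By DESeq2, without the experiment as a term, Hbegf (2.44, adjusted p = 0.00286) and Ereg (1.76, adjusted p = 0.0244) passed in DMT, beside 1.53% of all genes.

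Within each of the 2 experiments, the ratio of Ad-Cre to Ad-GFP could be taken without a model, which gave 8 ratios over the 4 NELFB constructs. Hbegf was higher after Ad-Cre in 8 of 8 (log2 ratio 0.53 to 3.40), Ereg in 8 of 8 (0.41 to 2.45) and Errfi1 in 8 of 8 (0.07 to 0.90). Areg was higher in 7 of 8, but it passed the filter for low counts only through Ad-Cre libraries. Tgfa was lower in 8 of 8 (-1.25 to -0.24), Egfr and Erbb2 each in 7 of 8, and Btc in 4 of 8. The experiments also differed in level. Replicate 2 was higher in 10 of 10 groups for Egfr (median ratio 1.41), Erbb2 (1.64), Ereg (1.39) and Tgfa (1.35), and in 1 of 10 groups for Errfi1 (median ratio 0.90).

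Summed over the 5 ligands, EV-GFP had 13.5 ± 2.84 CPM per kb of merged exons (SD, n = 2, as in the following values) and EV-Cre 76.8 ± 16.4. WT-Cre had 17.0 ± 1.71 and WT-GFP 12.0 ± 0.02. The mutants after Ad-Cre had 41.9 ± 16.5 in MT194, 47.2 ± 7.59 in MT486 and 54.5 ± 20.3 in DMT, against 11.5 ± 4.01, 16.8 ± 2.90 and 9.90 ± 2.51 after Ad-GFP. Each Ad-Cre value of the mutants was above each Ad-GFP value, and the groups MT194-Cre, MT486-Cre and DMT-Cre overlapped among themselves. Ereg contributed 40.1% to 65.1% of the sum in a library and Hbegf 29.0% to 56.9%, so these 2 genes held most ligand RNA per length in all 20 populations. Areg held at most 2.47% and Btc at most 4.95%, and Tgfa 0.854% to 10.8%.

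**Figure D3:**
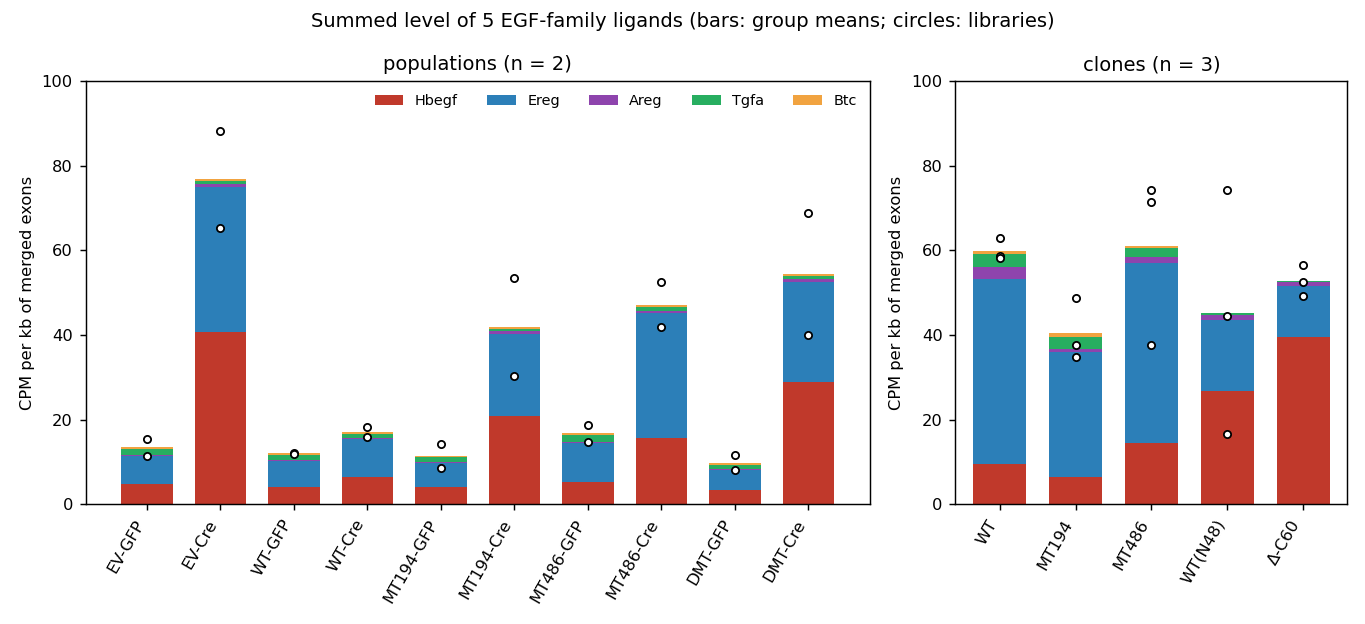
Stacked bars of the group means of the 5 ligand genes in CPM per kb of merged exons, from 0, with circles for the sum in each library, for 10 population groups (n = 2) and 5 clone groups (n = 3), which were normalized apart. Hbegf and Ereg fill most of every bar, and the sums after Ad-GFP stay at or below 18.8.

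The receptors varied little in level beside Hbegf and Ereg. Egfr had 301 to 662 CPM in the populations with a median of 454, a range of 2.20-fold, and Erbb2, its preferred partner, had 58.5 to 135 CPM with a median of 91.1, a range of 2.31-fold. In mean level, Egfr was highest in EV-GFP (547 CPM) and lowest in EV-Cre (382 CPM), and the ranges of most groups overlapped. Per kb of merged exons, the median population levels stood in the order Errfi1 (65.0), Egfr (40.1), Erbb2 (17.5), Ereg (9.09), Hbegf (5.89), Tgfa (0.993), Btc (0.418) and Areg (0.289). This order did not hold in every group. In EV-Cre the mean levels per kb of Hbegf (40.7) and Ereg (34.4) were above that of Egfr (33.8), and in DMT-Cre those of Hbegf (29.0) and Ereg (23.6) were above that of Erbb2 (16.1). Neither receptor was called by edgeR in any tested comparison of the populations or clones, and DESeq2 called Egfr lower in the MT486 clones than in WT(N48) (-0.66, adjusted p = 0.0416). Erbb3 and Erbb4, which encode the remaining ErbB receptors, had too few reads to be tested. Erbb3 had at most 0.416 CPM, and Erbb4 had no read in 18 of 20 populations and in 15 of 15 clones.

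Genes around the family were counted on lists by their known roles. The lists were chosen with earlier results of these data known, so their counts describe and support nothing on their own. Of 15 genes known to respond to ERK signaling, most had a positive fitted log2 fold change after Ad-Cre in every construct. This list includes the phosphatase genes Dusp4 and Dusp5, the Sprouty genes and the transcription factor genes Etv4, Etv5, Fosl1 and Myc. Its median log2 fold change after Ad-Cre was 0.25 in WT, 0.68 in MT194, 0.57 in MT486, 1.28 in DMT and 1.24 in EV. The median of all genes tested ran from -0.0087 in WT to 0.0140 in MT194. On Western blots, the study found less phosphorylated AKT, MEK and ERK protein after Nelfb deletion. It also found that WT NELFB or MT194 restored this phosphorylation in cells with degraded NELFB. RNA levels of this list do not measure ERK activity, and how they relate to the phosphorylation was not tested. In WT, 0 of 15 were called. In MT194, MT486 and DMT the called genes numbered 4, 3 and 9 of 15, beside 4.22%, 2.42% and 9.92% of all genes. In MT194, 4 rose, namely Spry4 (1.34, adjusted p = 0.0144), Etv4 (1.26, adjusted p = 0.0122), Myc (0.99, adjusted p = 0.00264) and Ier3 (0.89, adjusted p = 0.0288). In MT486, 3 rose, namely Etv4 (1.72, adjusted p = 0.00387), Spry4 (1.11, adjusted p = 0.0486) and Myc (1.06, adjusted p = 0.00269). In DMT, 9 rose, led by Fosl1 (2.59), Dusp5 (2.44), Spry4 (2.05) and Etv5 (1.93). Of these 9, 5 (Dusp4, Spry4, Fosl1, Ier3 and Myc) were also higher in DMT-Cre than in WT-Cre. With 1 DMT library left out, Dusp5 (2.27 to 2.60) kept its call in 1 of 4 fits, and Fosl1, Spry4 and Etv5 kept theirs in 4 of 4. No gene of this list was called lower in the populations, and 0 of 15 passed in the interactions with WT. In the interactions, the replicate block gave 1 in MT194 (Ier3), 0 in MT486 and 8 in DMT, beside 2.74%, 0.232% and 8.84% of all genes, and DESeq2 gave 4 in DMT (Dusp4, Fosl1, Ier3 and Myc), beside 1.53%, and 0 in the others. Fosl1, an AP-1 subunit gene, had 7.72 and 9.29 CPM in DMT-Cre against 1.66 and 1.19 in DMT-GFP, and 3.68 and 2.15 in WT-Cre against 2.69 and 1.70 in WT-GFP. Fitted on the compared groups alone, 0 of 15 were called in MT194 and in MT486 and 9 in DMT, beside 0%, 0.0381% and 3.63% of all genes, and with the replicate block 8, 9 and 11, and 2 in WT (Etv4 and Etv5). All genes called with the block made up 14.5%, 12.1%, 23.1% and 3.09% in these 4 constructs. Against WT-Cre, the block gave 4 in MT194-Cre, 4 in MT486-Cre and 9 in DMT-Cre, beside 10.9%, 5.24% and 14.2% of all genes. There edgeR without it called 0, 0 and 5, beside 1.38%, 0.109% and 2.94%. DESeq2 called 7, 5 and 10 for the Ad-Cre effect in MT194, MT486 and DMT, beside 6.53%, 5.08% and 12.7% of all genes. The counts over all genes also fell when 1 library was left out, as given under the processing, so the lower counts that follow are not particular to this list. Leaving out 1 library gave 1 to 3 calls in MT194 (1 without MT194-GFP replicate 1), 1 to 2 in MT486 (1 without MT486-GFP replicate 2), 6 to 8 in DMT (6 without DMT-GFP replicate 2) and 0 to 4 in DMT-Cre against WT-Cre (0 without WT-Cre replicate 2). Myc was the gene of this list called in all of these fits in MT194, MT486 and DMT, with adjusted p of at most 0.0399.

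**Figure D4:**
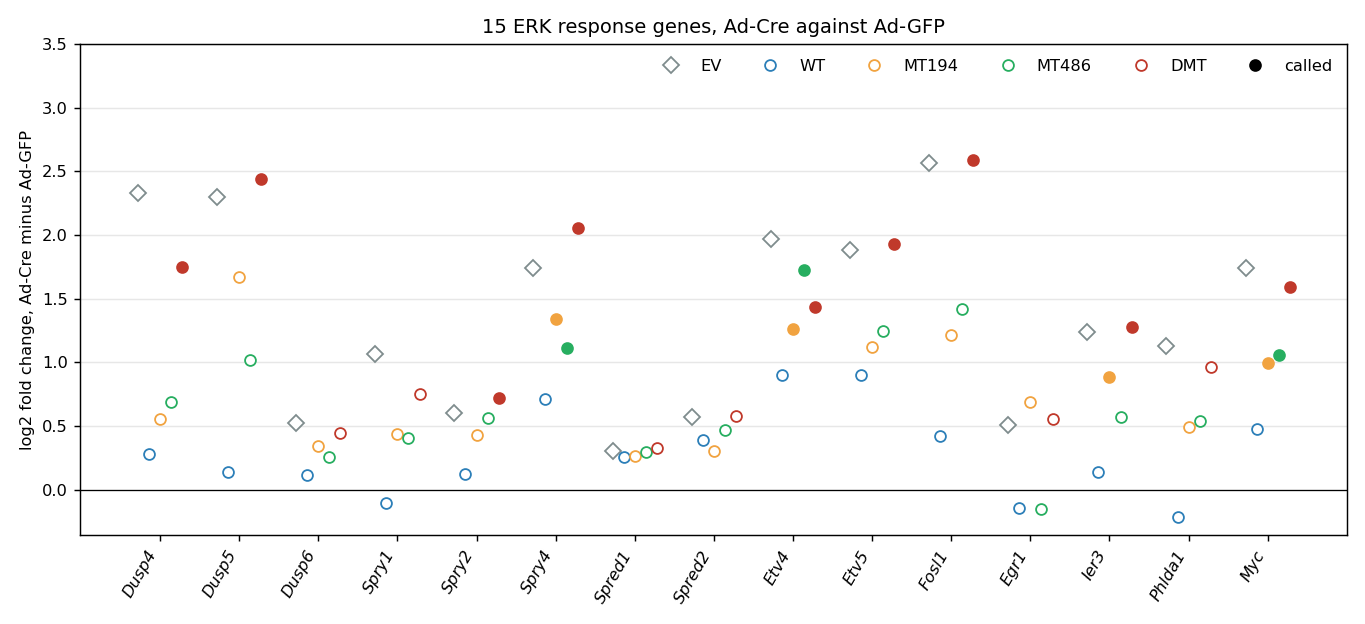
Log2 fold change of Ad-Cre over Ad-GFP for 15 ERK response genes in the 5 constructs, with filled circles for calls in the NELFB constructs and open diamonds for EV. DMT has 9 filled circles, MT194 has 4, MT486 has 3 and WT has 0.

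Of 9 genes that act in ligand shedding, 1 was called by edgeR without the block in the populations, Timp3, in MT194 (beside 4.22% of all genes) and in DMT, where 1 of 9 is near the 9.92% of all genes. Timp3 encodes an inhibitor of metalloproteinases, among them the ligand-releasing ADAM17. It had 768 and 1478 CPM in MT194-Cre against 172 and 305 in MT194-GFP, a rise of 2.23 (adjusted p = 0.0167), and 757 and 1237 in DMT-Cre against 121 and 150 in DMT-GFP, a rise of 2.88 (adjusted p = 0.00231). Its lowest Ad-Cre level was above its highest Ad-GFP level in both. The DMT call remained with each library left out, and that of MT194 was lost without MT194-Cre replicate 2 (adjusted p = 0.107) or MT194-GFP replicate 1 (0.167) and with the 2 groups fitted alone (0.251). With the replicate block, Timp3 was called higher in all 4 NELFB constructs, WT included. The block called 3.09%, 14.5%, 12.1% and 23.1% of all genes in WT, MT194, MT486 and DMT. In DMT it called 4 of the 9 genes, 2 higher and 2 lower. DESeq2 called Timp3 in MT194, MT486 and DMT, beside 6.53%, 5.08% and 12.7% of all genes. Of 12 receptor-proximal adaptors and kinases, 1 was called by edgeR without the block, near the share of all genes in DMT. This was Gab1, a docking protein that links receptors to PI3K, which fell by 0.61 in MT194 (adjusted p = 0.0352) and by 0.99 in DMT (adjusted p = 0.00115), and was lower in DMT-Cre than in WT-Cre (-0.85, adjusted p = 0.0104). Gab1 had 41.0 and 44.3 CPM in DMT-Cre against 87.0 and 82.7 in DMT-GFP. The DMT call of Gab1 remained with each library left out, and the MT194 call (adjusted p of 0.0576 to 0.276) and the call against WT-Cre each ended without any of their 4 libraries. DESeq2 and the replicate block each also called Gab1 lower in MT486, beside 5.08% and 12.1% of all genes. Of 10 negative regulators of the receptors, such as Cbl and Lrig1, 0 were called in the populations without the block. With it, Lrig1 was called higher in MT194, MT486 and DMT, beside 14.5%, 12.1% and 23.1% of all genes. Among 6 other ErbB ligand genes, 3 were tested and 0 called without the block. Nrg1, which encodes neuregulin 1, was the most abundant at 34.3 to 94.3 CPM. With the block, Nrg1 was called higher in MT194 and DMT, beside 14.5% and 23.1% of all genes.

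Genes with the pattern most like that of Hbegf over the 20 populations were sought among 11483 genes averaging 50 or more counts. Among the 5 highest Pearson correlations of log2 CPM were those of Thbd (thrombomodulin, 0.989), Tnfrsf12a (the TWEAK receptor, 0.983), Ier3 (0.982) and Bdnf (brain-derived neurotrophic factor, 0.979). The 20 points share 10 groups and 2 experiments and include the EV libraries that chose the set. Over the 15 clones the values were -0.14, 0.824, 0.268 and 0.904 in the same order, so that Thbd and Ier3 did not follow Hbegf there. Of the other 7 members, Ereg (0.953), Errfi1 (0.873) and Areg (0.797) were most like Hbegf over the populations, and Tgfa was the least (-0.50).

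In the stable clones, Tgfa and Btc separated by the labelled vector. Tgfa had 9.65 to 28.8 CPM in the 9 pLenti clones (median 16.2) and 0.558 to 2.15 CPM in the 6 pBabe clones (median 1.08). Btc had 0.598 to 6.09 CPM in the pLenti clones (median 3.56) and 0.201 to 0.456 CPM, from 5 to 9 reads, in the pBabe clones (median 0.265). Neither gene overlapped between the vectors, and the lowest pLenti value of Btc, 0.598 CPM in MT486 clone 3, came from 13 reads. The 9 pLenti clones include the libraries labelled WT clones 1 and 3, whose Tgfa levels of 18.1 and 16.2 CPM were within the range of the other 7. The other 6 genes overlapped between the vectors. Of all 13223 genes tested in the clones, 2.14% did not overlap between the vectors, and 1.07% were higher in all pLenti clones. Btc passed the filter for low counts only through the pLenti clones, so its separation is a description.

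**Figure D5:**
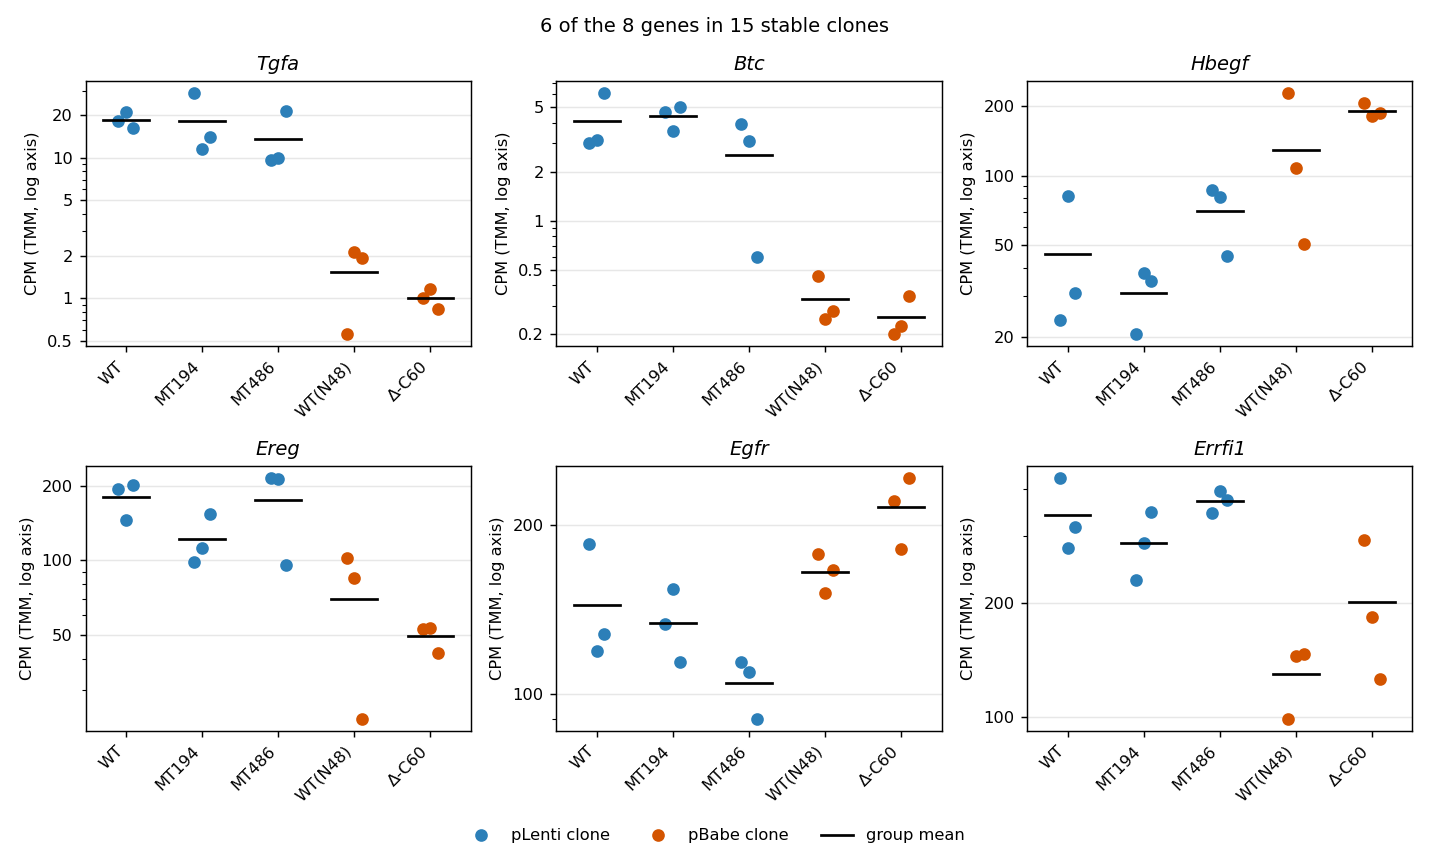
CPM on a log axis of 6 of the 8 genes in each of the 15 clones by construct, blue for pLenti and orange for pBabe, with a line at each group mean. Tgfa and Btc of all pLenti clones lie above those of all pBabe clones, and Hbegf, Ereg, Egfr and Errfi1 overlap between the vectors.

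Compared with WT(N48), which differs from them in vector too, the MT194 clones had higher Tgfa by 3.54 (standard error 0.51, adjusted p = 0.00529), higher Btc by 3.73 (0.63, adjusted p = 0.01) and higher Errfi1 by 1.15 (0.28, adjusted p = 0.0366), and lower Hbegf, with a log2 fold change of -2.05 (0.54, adjusted p = 0.0463). These 4 of 8 genes were called beside 5.82% of all 13223 genes tested in the clones. Btc had at most 9 reads in each pBabe clone and passed the filter for low counts only through pLenti clones. Its calls between the 2 vectors, here and below, are therefore not support. Hbegf had 20.6 to 37.9 CPM in the MT194 clones against 228, 108 and 50.8 in WT(N48), without overlap but with a wide spread in the latter. The Tgfa call remained with each of the 6 clones left out and that of Btc was lost without WT(N48) clone 2 (adjusted p = 0.0512). The Hbegf and Errfi1 calls each remained in 1 of 6 such fits, that without WT(N48) clone 3, and their adjusted p reached 0.217 and 0.171 without WT(N48) clone 1. With the 2 groups fitted alone, Tgfa (0.0526), Hbegf (0.0936) and Errfi1 (0.0609) were not called, and without a filter Hbegf was not (0.0722). The MT486 clones had higher Tgfa by 3.14 (0.50, adjusted p = 0.0263) and higher Errfi1 by 1.51 (0.29, adjusted p = 0.0493), 2 of 8 genes beside 0.287% of all genes. With the MT486 and WT(N48) clones fitted alone, Tgfa was not called (3.15, adjusted p = 0.0708). Leaving out MT486 clone 1, MT486 clone 2, WT(N48) clone 1 or WT(N48) clone 2 ended the Tgfa call (adjusted p of 0.0599 to 0.0709), and leaving out any clone ended the Errfi1 call (0.0537 to 0.226). MT486 clones 1 and 2 were more alike than any other 2 clones of a group (chi-square per gene of 5.06, against 32.4 to 349), and whether they are independent clones was not tested, so the MT486 errors may rest on fewer than 3. Btc differed by 2.94 (0.62, adjusted p = 0.0676) and was called without MT486 clone 3 (3.43, adjusted p = 0.0137). DESeq2 also called Btc (2.97, adjusted p = 0.00139) and Ereg (1.33, adjusted p = 0.0488), which with Tgfa, Errfi1 and Egfr made 5 of 8 genes beside 4.44% of all genes. Hbegf, at 86.8, 80.6 and 44.7 CPM, differed by -0.87 (adjusted p = 0.465) and overlapped with WT(N48).

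With the libraries labelled WT as comparator, which share the pLenti vector but not all of their label's Nelfb RNA, none of the 8 genes was called in the MT194 or MT486 clones, beside 2.9% and 0% of all genes. Tgfa then differed by -0.03 in MT194 and by -0.44 in MT486, and Btc by 0.11 and -0.67. With the libraries labelled WT clones 1 and 3 left aside in the fit, the comparison of MT194 with WT(N48) kept 2 calls, Tgfa and Btc, beside 1.59% of all genes, and that of MT486 kept 0, beside 0.0429%.

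Δ-C60 and WT(N48) share the pBabe vector. Hbegf had 206, 182 and 187 CPM in Δ-C60, within the range of WT(N48), and differed by 0.57 (standard error 0.52, adjusted p = 0.721). Ereg had 52.8, 53.4 and 42.4 CPM against 102, 85.1 and 22.9, and Errfi1 294, 184 and 126 against 98.8, 144 and 147, and both genes overlapped between the groups. Egfr, at 214.9 ± 31.2 CPM against 165 ± 13.0 (SD, n = 3), differed by 0.38. None of the 8 genes was called, beside 0% of all genes, although 1540 genes had an unadjusted p under 0.05, DESeq2 called 230 and leaving out Δ-C60 clone 2 gave 313. Against the libraries labelled WT, 4 of the 8 genes were called in Δ-C60 beside 8.33% of all genes, namely Hbegf (2.07, adjusted p = 0.0375), Ereg (-1.87, adjusted p = 0.0282), Tgfa (-4.20, adjusted p = 0.00493) and Btc (-3.97, adjusted p = 0.00688), with vector and construct again not told apart and with 2 of the 3 comparators against their label.

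In summed ligand RNA, the clone groups had means between 40.4 and 61.1 CPM per kb, with 59.9 ± 2.63 (SD, n = 3, as in the following values) in the libraries labelled WT, 61.1 ± 20.3 in MT486, 40.4 ± 7.35 in MT194, 45.2 ± 28.8 in WT(N48) and 52.7 ± 3.66 in Δ-C60, and their ranges overlapped in part. The composition of the sum differed between the labelled vectors. The mean share of Ereg was 72.9%, 72.4% and 68.1% in WT, MT194 and MT486, whereas that of Hbegf was 58.9% for WT(N48) and 75.2% for Δ-C60. Of 49 genes tested on the 5 lists of other genes of the pathway, 3 were called in the MT194 clones against WT(N48), a share of 6.12% that is near the 5.82% of all genes, with Adam10, which encodes a ligand-releasing protease, higher by 0.97 (adjusted p = 0.0152), the phosphatase gene Ptpn1 higher by 0.65 (adjusted p = 0.0352) and Etv4 lower (-1.91, adjusted p = 0.0406), and 0 in the MT486 or Δ-C60 clones. Leaving out 1 clone ended the Adam10 call in 3 of 6 fits (adjusted p up to 0.0908), that of Ptpn1 in 4 (up to 0.131, without MT194 clone 1) and that of Etv4 in 5 (up to 0.192, without WT(N48) clone 1). With the libraries labelled WT clones 1 and 3 left aside, Ptpn1 (adjusted p = 0.071) and Etv4 (0.0817) were not called.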

How the data were processed

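RNA-seq counts of 35 libraries of iMEFs were used, 20 populations and 15 stable clones. The members and the gene lists were chosen with earlier results of these data known, and so support nothing on their own. The authors made the deposited counts from poly(A) libraries of a strand-marking kit with Bowtie2, which places no read across an exon junction, on mm10, a mapping quality filter of 30 and HTSeq, without normalization. The submitters' processing notes also name SAMtools and DESeq2, without versions, and neither the counting annotation nor its strand setting is given in the sources used here. Left out were reads on no gene (11.7% to 21.3% of a population library, 9.14% to 12.0% of a clone library) and ambiguous reads (0.911% to 1.13%).

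edgeR 4.0.16 in R 4.3.3 gave TMM-normalized CPM, log2 fold changes and p-values from these counts, populations and clones apart, on genes kept by filterByExpr, by a quasi-likelihood fit with 1 mean per group and robust dispersions, with Benjamini-Hochberg adjustment over all genes tested. The standard error is the size of the log2 fold change divided by the square root of F. Calls needed an adjusted p below 0.05 with a log2 fold change beyond 0.5 in size, and for interactions the adjusted p alone. Gene positions and exon lengths came from GENCODE vM21 on GRCm38. The steps were tested on simulated data, which held no difference between experiments. For the Ad-Cre effect in MT194, 90% of 4-fold and 46% of 2-fold changes were called. For the MT194 clones against WT(N48), these shares were 76% and 15%. A gene that was not called may therefore still differ. Alternatives were DESeq2 1.42.0, its size factors, no filter, a log2 fold change over 1, the groups compared alone, the replicate number as a block, each library left out in turn (a lone library is then assumed to vary like the others) and the libraries labelled WT as comparator for the clones. After the data were seen, a fit with WT clones 1 and 3 left aside was added.

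Replicate numbers pair the populations: deviations of replicate 1 from its group mean correlated over 0.1 between groups in each of 45 group pairs (from 0.420 to 0.730, with a median of 0.586), and the study describes 2 independent experiments. Clone numbers only name clones. No replicates agreed within sampling noise, the closest being MT486 clones 1 and 2 (chi-square of 5.06 per gene), and all were kept as separate samples. Nothing in the labels says that clones of a group came from separate transductions, so p-values measure only the spread between these samples. Named genes were the 8 members, Nelfb, genes of the lists called in a tested comparison, at most 4 per list and comparison by size, and the 5 genes most like Hbegf, of which 1 is not reported here. Genes called only under an alternative, all 5 ERK genes called in DMT-Cre against WT-Cre, Cbl, Lrig1, Nrg1, Erbb3 and Erbb4 were named beside them, after their values were seen.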

Additional observations from a re-analysis of the deposited data

Results flagged for a closer look

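Nelfb was picked out by the test of a difference between groups: its Ad-Cre effect in DMT exceeded that in WT by 1.88 in log2 units (standard error 0.28, adjusted p = 0.0259, edgeR quasi-likelihood interaction test). Nelfb had 169 and 208 CPM in DMT-Cre against 73.5 and 61.6 in DMT-GFP, and 75.9 and 60.5 in WT-Cre against 97.5 and 82.8 in WT-GFP, with higher values after Ad-Cre in 2 of 2 experiments in DMT and lower values in 2 of 2 in WT. Leaving out 1 library ended the call in 6 of 8 fits (adjusted p up to 0.194, without WT-Cre replicate 2), with differences of 1.72 to 2.05. With the compared groups fitted alone, 0 genes passed this test, so that the Nelfb call was lost there too. Reads of Nelfb include the construct, so that endogenous and ectopic RNA cannot be told apart, and the cause was not tested. None of the 8 EGF-family genes passed the same test.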

How the results depend on the processing

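Of the 8 genes, those called numbered 3 (MT194), 2 (MT486), 3 (DMT) and 0 (WT) for the Ad-Cre effect, 0, 0 and 2 for MT194-Cre, MT486-Cre and DMT-Cre against WT-Cre, 0 in the interactions, and 4, 2 and 0 for the MT194, MT486 and Δ-C60 clones against WT(N48). With DESeq2 the counts became 3 for the Ad-Cre effect in MT486, 2 and 1 for MT194-Cre and MT486-Cre against WT-Cre, 2 for the DMT interaction and 5 for the MT486 clones. With DESeq2 size factors they became 1 for the Ad-Cre effect in MT486, beside 2.33% of all genes, and 1 for MT194-Cre against WT-Cre, beside 1.37%. Without a filter they became 1 for MT194-Cre against WT-Cre, beside 0.695%, and 3 for the MT194 clones, beside 2.46%. A log2 fold change over 1 left out Errfi1 and gave 2 in MT194 and 2 in DMT, beside 2.48% and 5.31% of all genes. With the replicate block they became 1 in WT and 4 each in MT194, MT486 and DMT for the Ad-Cre effect, 3 each for MT194-Cre and MT486-Cre against WT-Cre, 3, 1 and 3 in the MT194, MT486 and DMT interactions, and 2 and 0 for the MT194 and MT486 clones, whose numbers pair nothing (3 of 15 clones correlated best with their own number). With the compared groups alone they became 0 for the Ad-Cre effect in MT194 and in MT486 and 2 in DMT, beside 0%, 0.0381% and 3.63% of all genes. They also became 1 for DMT-Cre against WT-Cre (beside 0.768%) and 1 each for the MT194 and MT486 clones (beside 1.07% and 0.375%). With the libraries labelled WT as comparator they became 0, 0 and 4 for the MT194, MT486 and Δ-C60 clones, and with WT clones 1 and 3 left aside 2 and 0 for the MT194 and MT486 clones. Leaving out 1 library gave 0 to 2 calls for the Ad-Cre effect in MT194, 0 in MT486 and 2 to 3 in DMT, 0 to 1 for MT194-Cre and for DMT-Cre against WT-Cre, and 1 to 4 and 0 to 2 for the MT194 and MT486 clones. The cause of these shifts was not tested.

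Directions changed with the libraries labelled WT as comparator: Ereg (-0.57), Tgfa (-0.027) and Errfi1 (-0.25) in the MT194 clones, Hbegf (0.63), Ereg (-0.047), Tgfa (-0.44) and Btc (-0.67) in the MT486 clones, and Errfi1 (-0.76) in the Δ-C60 clones. Leaving out 1 EV library without the block, which mixes in the difference between experiments, took Erbb2 in EV from -0.79 to 0.13 and Btc from -0.17 to 0.47. Areg in WT ranged from -0.20 (without WT-GFP replicate 1) to 1.53 when 1 library was left out. In the populations, Hbegf, Ereg and Errfi1 kept their positive sign after Ad-Cre and against WT-Cre under all alternatives run. Of 48 effects of the 8 genes that are not printed as fitted values, 0 were called, 33 changed sign under some alternative, and Tgfa in MT194-Cre against WT-Cre was called with the replicate block (-0.71, adjusted p = 0.0279).

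Counts over all genes moved further. For the Ad-Cre effect in EV, WT, MT194, MT486 and DMT (1626, 3, 582, 334 and 1369 genes), the replicate block gave 3502, 426, 2003, 1673 and 3191 and the compared groups alone 239, 1, 0, 5 and 489. DESeq2 gave 61 in WT, 901 in MT194 and 688 in MT486, and a log2 fold change over 1 gave 900 in EV, 343 in MT194, 201 in MT486 and 733 in DMT. Against WT-Cre, MT194-Cre, MT486-Cre and DMT-Cre (191, 15 and 406) gave 1510, 723 and 1965 with the block, 450, 154 and 717 by DESeq2 and 0, 0 and 102 for the groups alone. A log2 fold change over 1 gave 121 and 226 for MT194-Cre and DMT-Cre, and no filter 268 for DMT-Cre. The interactions of MT194, MT486 and DMT (0, 0 and 19) gave 378, 32 and 1221 with the block and 68, 4 and 211 by DESeq2, and DMT gave 0 alone. The MT194, MT486 and Δ-C60 clones (770, 38 and 0) gave 1744, 584 and 230 by DESeq2 and 384, 0 and 1102 against the libraries labelled WT. The MT194 and MT486 clones gave 395 and 19 with the block and 223 and 6 without WT clones 1 and 3, and the MT194 clones gave 134 alone, 429 at a log2 fold change over 1 and 472 without a filter. Leaving out 1 library gave 734 to 1060 genes in EV, 0 to 1 in WT, 189 to 294 in MT194, 76 to 128 in MT486 and 518 to 791 in DMT for the Ad-Cre effect, and 18 to 83, 0 to 1 and 62 to 135 for MT194-Cre, MT486-Cre and DMT-Cre against WT-Cre, in each case under the count with all libraries. The interactions gave 0, 0 to 1 and 0 to 11. The clones gave 57 (without WT(N48) clone 1) to 1393 (without WT(N48) clone 3) for MT194, 2 (without MT486 clone 2) to 91 (without WT(N48) clone 3) for MT486 and 0 to 313 (without Δ-C60 clone 2) for Δ-C60. The shares of all genes called rest on these counts. With 2 to 22 reads in each population, small differences in Areg were not detectable at this depth.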

Other observations

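Among clones of one construct, Hbegf and Nelfb levels had the same order in 4 of 5 groups of 3 clones, the exception being MT194. In WT(N48), Nelfb had 241, 127 and 56.3 CPM in clones 1 to 3 and Hbegf 228, 108 and 50.8. In the libraries labelled WT, Nelfb had 10.3, 109 and 15.5 CPM and Hbegf 23.6, 82.1 and 31.2. Δ-C60 clones had 247, 208 and 218 CPM of Nelfb and 206, 182 and 187 of Hbegf, and MT486 clones had 180, 158 and 135 of Nelfb and 86.8, 80.6 and 44.7 of Hbegf. In the MT194 clones, Nelfb had 189, 216 and 147 CPM and Hbegf 20.6, 37.9 and 34.98, the lowest mean of Hbegf among the clone groups. These are 3 clones a group, and the relation was not tested.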
